A study of Mus musculus with 8 samples.

Results

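Alternative 3′ splice sites are pairs of acceptors that the same intron can join to. Use of the upstream acceptor gives the long form of the exon, and use of the downstream acceptor gives the short form, which lacks the stretch between them. The set described here holds every listed pair whose acceptors lie more than 3 nt apart, taken as the difference between the lengths of the long and the short form in the deposited tables. These were 3046 of 3763 alternative acceptor events and of 82858 splicing events of 5 types, with 2749 members in the spermatocyte table, 2475 in the round spermatid table and 2178 in both. An acceptor is the AG dinucleotide at the end of an intron, preceded in most introns by a run of pyrimidines. U2AF reads the pyrimidine run and the AG, SF1 reads the branch point upstream of them, and the AG nearest downstream of the branch point is usually the one used in the second step of splicing. Where the distance is a multiple of 3 the reading frame is the same in both forms, and otherwise the choice of acceptor shifts it.

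The study compared polyadenylated RNA of spermatocytes, which pass through meiosis, and of round spermatids, their haploid products, in adult C57BL/6 mice. Cells were sorted after Hoechst staining, and the genotypes were Larp7 conditional knock-out, labelled Larp7 knock-out, and control, labelled Wildtype. Larp7 binds the 7SK RNA, which holds P-TEFb inactive, and takes part in the modification of U6 spliceosomal RNA. Each stage and genotype had 2 libraries, described as biological replicates. No source used here gives the Cre driver or says whether animals were pooled. Each table numbers 2 sample groups of 2 libraries and does not name their genotype, so they are called group 1 and group 2 here and no genotype direction is given.

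Reads over all listed events ranged from 51786242 to 102000320 in the spermatocyte libraries and from 49904607 to 93265932 in those of round spermatids, and library 2 of group 1 had most at both stages. As a check of the targeted gene, a Larp7 exon had inclusion levels of 2.4% and 0.951% in group 1 and 100% throughout group 2 for spermatocytes, and of 0.279% and 0.598% against 100% for round spermatids. Each marker was counted by the reads of its gene's most covered event. CPM are these counts scaled to the library's sum of such reads over genes. Reads of the spermatocyte markers (9 of 10 listed, without Pgk2) summed to 3230 to 4780 CPM in spermatocytes and 658 to 873 CPM in round spermatids. The round spermatid markers went the other way, at 858 to 951 CPM over 7 listed genes against 3360 to 3820 CPM over 9. Sertoli cell markers, 7 of 9 listed and Sox9 and Cldn11 not, summed to 229 and 158 CPM in spermatocyte group 1 against 49.8 and 87.9 CPM in group 2, and 4 of them to 44.7 to 93.9 CPM in round spermatids. Markers of elongating spermatids, 5 of 10 listed and Tnp1, Tnp2, Prm1, Prm2 and Odf1 not, summed to 1830 to 2840 CPM in spermatocytes and 8890 to 14600 CPM in round spermatids. Their sums were lower in group 1, at 1830 and 2190 CPM against 2840 and 2560 in spermatocytes. In round spermatids they were 8890 and 10900 CPM against 14600 and 11400. Leydig, peritubular and immune markers reached at most 67.7 CPM with 7 of 12 listed and none of the defining Leydig genes. Spermatogonial markers summed to 3440 to 4930 CPM (9 of 12 listed; Gfra1, Nanos3 and Sall4 not) in spermatocytes and 1540 to 2230 CPM (5 of 12) in round spermatids, but Tuba3a alone made up 2950 to 4860 CPM and 1530 to 2220 CPM of these sums. The other 8 listed in spermatocytes were all higher in both libraries of group 1 than in either of group 2, among them Dazl with 260 and 124 CPM against 50.2 and 41.4, Sohlh2 with 27.6 and 13.4 against 2.71 and 3.81, Dmrt1 with 42.5 and 6.77 against 1.32 and 2.92, and Stra8 with 36.5 and 5.81 against 1.56 and 2.11. In bulk libraries, fewer cells of a type and less RNA per cell cannot be told apart, and the part of other cell types in the results was not tested.

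Sequence of both acceptors was at hand for 4 of the 2897 acceptor pairs, from RefSeq windows around gene starts (GRCm38.p6), and these pairs show what the distances look like in the RNA. Each line gives the last 20 intron bases and the first 3 exon bases, 5′ to 3′, with the AG of the acceptor in capitals. All 18 acceptors that the windows covered ended in AG.
Wdr41, upstream acceptor: tttttttttttcattacaAGaaa
Wdr41, downstream acceptor: tttttttcattacaagaaAGctg
Rcbtb2, upstream acceptor: cagtcttttctttcccatAGgtg
Rcbtb2, downstream acceptor: agtaggatctggatcaacAGcta
Mef2c, upstream acceptor: ggtttcctttcctcctacAGagc
Mef2c, downstream acceptor: gaacctgtttctcctcctAGaga
Pfkfb1, upstream acceptor: ttcatttctccattctccAGtgg
Pfkfb1, downstream acceptor: taacaagggtgcttcctcAGcct
Fam63a, upstream acceptor: ccctgctttcttggctccAGagc

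In Wdr41 (chromosome 13, plus strand, first exon bases 94978470 and 94978474) the acceptors lie 4 nt apart and share a single run of T. Spermatocytes used the upstream site at 95.9% and 97.7% (group 1) and 96.5% and 98.6% (group 2). In Rcbtb2 (chromosome 14, plus strand, 73166480 and 73166532) the acceptors lie 52 nt apart, and the 18 bases before the AG hold 15 pyrimidines upstream and 7 downstream. There the long form took 94.6% to 100% in spermatocytes and 96.2% to 100% in round spermatids. In Mef2c (a transcription factor gene, chromosome 13, plus strand, 83662307 and 83662403) the counts of pyrimidines were close, 15 upstream and 14 downstream, and the long form was the minor one in round spermatids, at 31.3%, 16.5%, 13.7% and 9.62%. Pfkfb1 (a gene of the enzyme that makes and breaks down fructose 2,6-bisphosphate, chromosome X, plus strand, 150589796 and 150589953) had 16 pyrimidines upstream and 10 downstream, and its long form took 19.6% to 31.7% in round spermatids. Spermatocytes had 7 reads per library for the Mef2c pair and 5 for the Pfkfb1 pair, too few to be tested. Higher use did not go with more pyrimidines in every pair, and 4 pairs allow no statement beyond themselves.

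The members lay in 2195 genes. Their distances ran from 4 to 7347 nt, with a median of 52 nt in the spermatocyte table and 48 nt in the round spermatid table. The commonest distance was 4 nt, with 116 and 106 members. Of the members, 40.9% in spermatocytes and 40.6% in round spermatids had a distance divisible by 3. Members can share acceptors and differ in the exon before them: the spermatocyte members formed 2640 acceptor pairs and the round spermatid members 2390. For testing, 2461 and 2148 members had an average of at least 10 reads per library, and the other 288 and 327 did not. At the edge of the set, pairs exactly 3 nt apart, which are not members, had a median long-form level of 65.5% in spermatocytes and 66.7% in round spermatids, against 95.4% and 96.4% at 4 nt.

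Use of the long form differed with distance, and not in one direction. The long-form level is the share of the long form in percent after dividing the reads of each form by its length. Among members 4 to 9 nt apart the upstream acceptor dominated, with library medians of 93.8%, 94.4%, 95.5% and 94.5% in spermatocytes. At 10 to 30 nt the medians fell on the side of the downstream acceptor, at 27.0%, 27.6%, 27.1% and 28.6%. That class was split, with 160 of 563 members above 90%, 200 below 10%, and quartiles of 5.58% and 93.6%. Beyond that the upstream acceptor led again: the medians were 74.8% to 78.4% at 31 to 100 nt, 90.5% to 95.2% from over 100 to 300 nt and 96.1% to 100% over 300 nt. Round spermatids had the same order, with medians of 95.1% to 95.9%, 28.1% to 30.5%, 72.2% to 75.5%, 87.0% to 89.9% and 96.2% to 98.4%. The 8 libraries differed far less within a class than the 10 to 30 nt class differed from its neighbours. These levels are a description over members that share genes and libraries, and they carry no test.

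**Figure D1:**
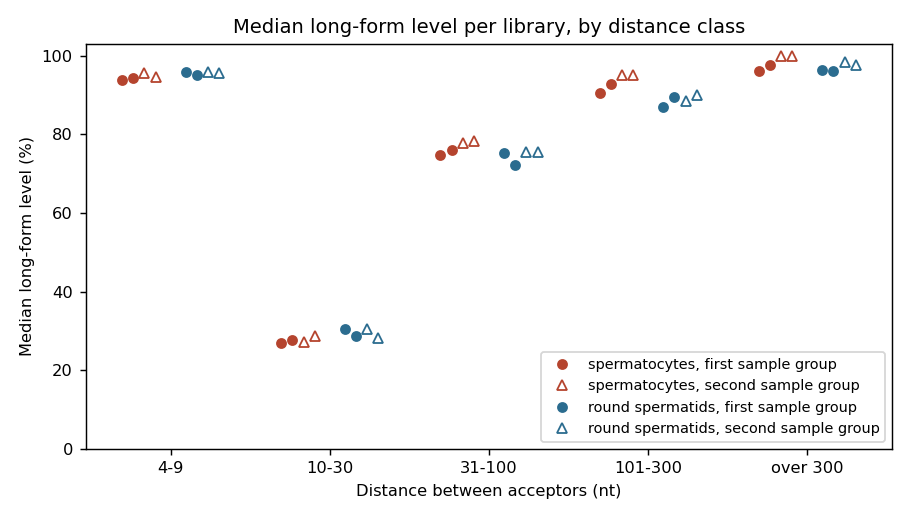
Median long-form level in percent (vertical axis) of the tested members in each of 5 classes of distance between acceptors (horizontal axis), 1 point per library, with circles for group 1 and triangles for group 2. The medians of all libraries lie between 27.0% and 30.5% at 10 to 30 nt and above 72% in the other classes.

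The medians changed side between about 9 and 15 nt. In spermatocytes the median level was 97.0% at 4 nt (95 members), 93.4% at 5 nt (64 members) and 86.3% at 6 nt (51 members). It was 57.2% at 9 nt (34 members) and 70.7% at 12 nt (51 members), where the quartiles spanned 22.1% to 98.6%. From 14 to 21 nt all medians were low, from 6.75% at 16 nt (25 members) to 27.8% at 21 nt (59 members). Round spermatids had 97.4% at 4 nt, 71.8% at 9 nt, 71.2% at 12 nt and 8.26% at 16 nt. From 22 nt upward the medians of single distances scattered, with few members at each.

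**Figure D2:**
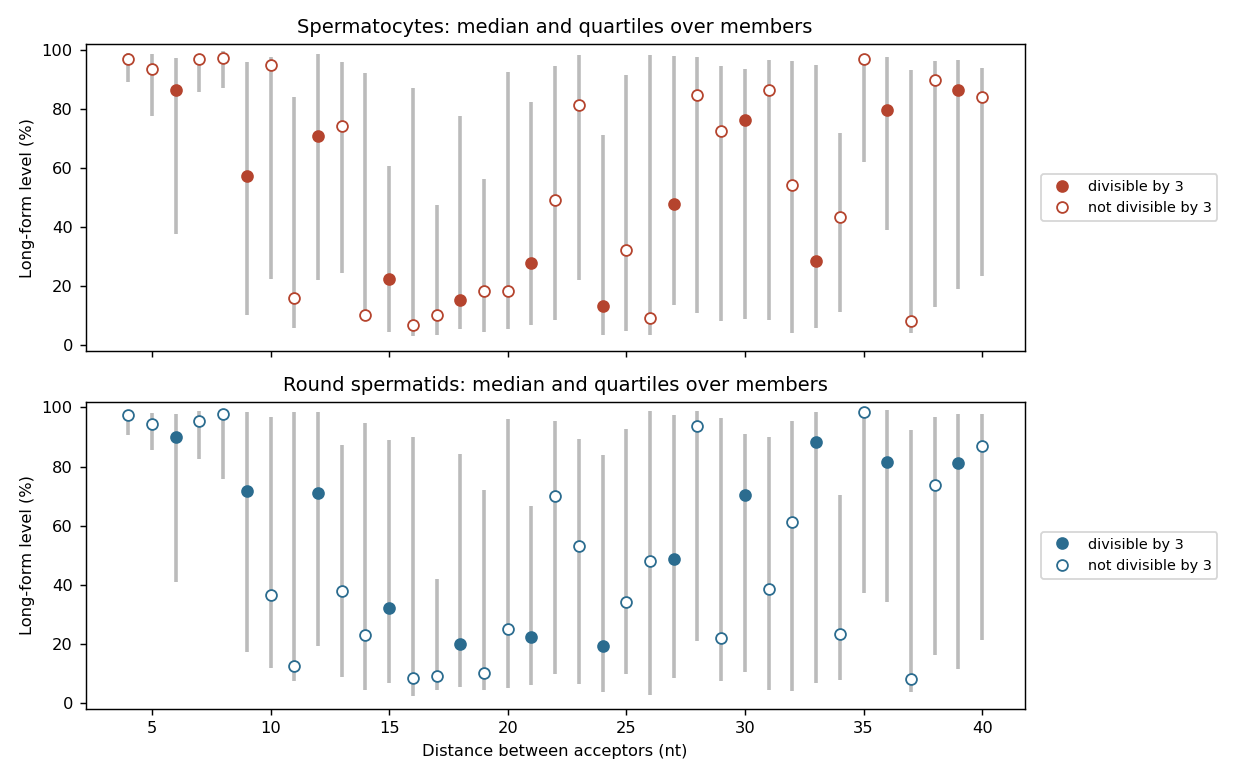
Median (points) and quartiles (grey lines) of the long-form level in percent over tested members at each distance from 4 to 40 nt, for spermatocytes (upper panel) and round spermatids (lower panel), with filled points where the distance is divisible by 3. Medians are above 85% from 4 to 8 nt and below 33% from 14 to 21 nt in both stages.

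Most members used nearly 1 acceptor. In spermatocytes 785 of 2461 tested members (31.9%) had a level from 10% to 90%, 1152 lay above 90% and 524 below 10%. In round spermatids the counts were 680 (31.7%), 958 and 510 of 2148. Pairs 3 nt apart had a level from 10% to 90% in 70.8% of cases in spermatocytes and 67.3% in round spermatids. Within the 4 to 9 nt class, distances divisible by 3 had a lower median than the others, 81.1% against 96.1% in spermatocytes and 81.7% against 96.8% in round spermatids. At 10 to 30 nt the difference had the other sign, 29.6% against 23.4% and 33.1% against 22.1%.

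Among the members with most reads that used both acceptors, some had close levels in all libraries and others did not. Ybx1, which codes for a cold shock protein that binds RNA, has acceptors 12 nt apart (chromosome 4, minus strand, 119279211 and 119279199) and 21200 reads per library in spermatocytes. Its long form took 20.4%, 20.2%, 20.5% and 19.6% in spermatocytes and 19.6%, 19.9%, 19.9% and 17.8% in round spermatids, and the stages overlapped. Atxn2l, a relative of the ataxin 2 gene (18 nt), lay at 24.8% to 27.0% and 26.1% to 29.2%. Art3, an ADP-ribosyltransferase family gene (51 nt), lay at 58.2% to 63.5% and 58.2% to 60.8%. Between stages these 3 had adjusted p-values from 0.7952 to 0.9311 in limma, which does not show that the levels were equal. Dgcr6 (9 nt) had 39.5%, 40.7%, 46.5% and 47.2% in spermatocytes and 45.6%, 50.1%, 48.3% and 50.5% in round spermatids (adjusted p = 0.2284, limma). Serbp1, an mRNA-binding protein gene (45 nt), did not overlap between stages, at 40.8% to 41.5% and 45.0% to 49.3%, but missed the threshold (adjusted p = 0.09246, limma). 1700028J19Rik (5 nt) lay 3.98 points higher in spermatocytes without overlap (adjusted p = 0.09449, limma), and Dyrk1b, a protein kinase gene (120 nt), had 24.5% to 33.9% and 31.2% to 37.2% (adjusted p = 0.1213, limma).

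At long distances the listed long form often spans an intron of its own. A retained-intron event of the same gene lay wholly inside the alternative stretch in 272 of 354 tested members over 300 nt in spermatocytes (76.8%) and in 192 of 274 in round spermatids (70.1%). From over 100 to 300 nt the counts were 126 of 419 and 85 of 340, and a single tested member up to 100 nt had one in spermatocytes and none in round spermatids. Over 100 nt, members with such an intron had a median level of 98.6% in spermatocytes and 98.3% in round spermatids, against 66.1% and 52.6% without one. In members with one, the rarer form had a median of 0.75 reads per library in both stages. Without a listed intron inside, members over 300 nt had medians of 62.6% and 47.0%.

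Between stages, 213 of 2032 tested members (10.5%) in 197 genes were called with limma at an adjusted p below 0.05, beside 11.5% of all 34455 events tested in both stages. Of the 2032 tested members, 96 were called with the long form higher in spermatocytes and 117 in round spermatids, beside 5.29% and 6.21% of all events. Members called without overlap between the libraries of the stages were 171 of the 2032, beside 2917 of all 34455 events (8.47%). The median difference in mean level among called members was 9.0 percentage points, and 48 differed by at least 20 points. The share of members called was thus near that of all events. There were 118 called members without the deepest spermatocyte library (library 2 of group 1), 106 without library 2 of round spermatid group 1, and 130 without library 2 of round spermatid group 2.

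The share of members called was larger at longer distances: 9 of 246 (3.66%) at 4 to 9 nt, 40 of 507 (7.89%) at 10 to 30 nt, 78 of 744 (10.5%) at 31 to 100 nt, 47 of 325 (14.5%) from over 100 to 300 nt and 39 of 210 (18.6%) over 300 nt. The median reads of the rarer form in these classes were 7.81, 12.1, 11.0, 9.25 and 4.88 per library. Those of both forms together were 223, 204, 243, 297 and 315. The part of read depth in the shares was not tested. Among members over 100 nt, 64 of 328 without a listed intron inside were called (19.5%) and 22 of 207 with one (10.6%), beside 11.5% of all events. Up to 100 nt, 48 of 127 called members were higher in spermatocytes (37.8%), beside 46.0% of all called events. Over 100 nt, 48 of 86 were (55.8%), and 66.7% with weights taken from the counts of each library or without library 2 of round spermatid group 1, or 46.6% without library 2 of round spermatid group 2. Over 100 nt without a listed intron inside, 42 of 64 called members were higher in spermatocytes (65.6%; 61.9% to 80.0% over the alternatives), and with one, 6 of 22 were. The retained-intron events themselves were called in 712 of 2343 cases, 634 of them higher in spermatocytes. Of 20 called members over 100 nt with a tested intron inside, 9 had a called intron, in the same direction in 4 and in the opposite direction in 5. Whether retained introns had a part in the direction of the long members was not tested.

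**Figure D3:**
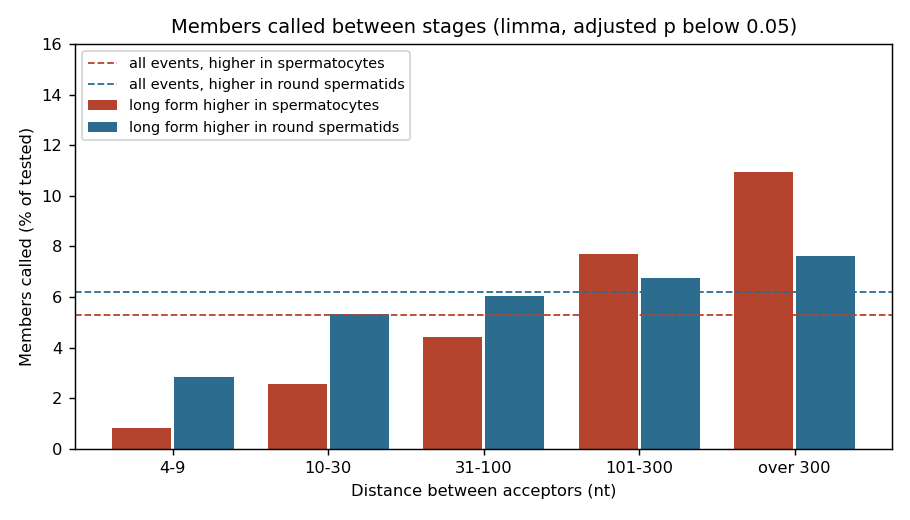
Members called between stages as a percent of those tested (vertical axis) in each distance class (horizontal axis), split by the stage with the higher long-form level, with dashed lines for the same share over all events (5.29% and 6.21%). Calls make up 3.66% of the shortest class and 18.6% of the longest.

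The share called was smaller among pairs that keep the reading frame. Of members with a distance divisible by 3, 54 of 821 (6.58%) were called, against 159 of 1211 (13.1%) of the others, beside 11.5% of all events. Of these 54 and 159 called members, 32 and 69 differed by at least 10 points. The median differences of the called members were 13.5 points where the distance was divisible by 3 and 8.45 points in the others. The shares lay apart in the same direction at every depth of the rarer form: 0.719% and 2.23% under 5 reads, 7.34% and 14.1% from 5 to under 20, 8.49% and 21.6% from 20 to under 100, and 15.9% and 31.8% at 100 reads or more. By distance they lay closest from over 100 to 300 nt, at 14.0% and 14.7%. Pairs 3 nt apart were called in 4 of 500 cases (0.8%). These are counts of members, and the difference between the shares was not tested.

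**Figure D4:**
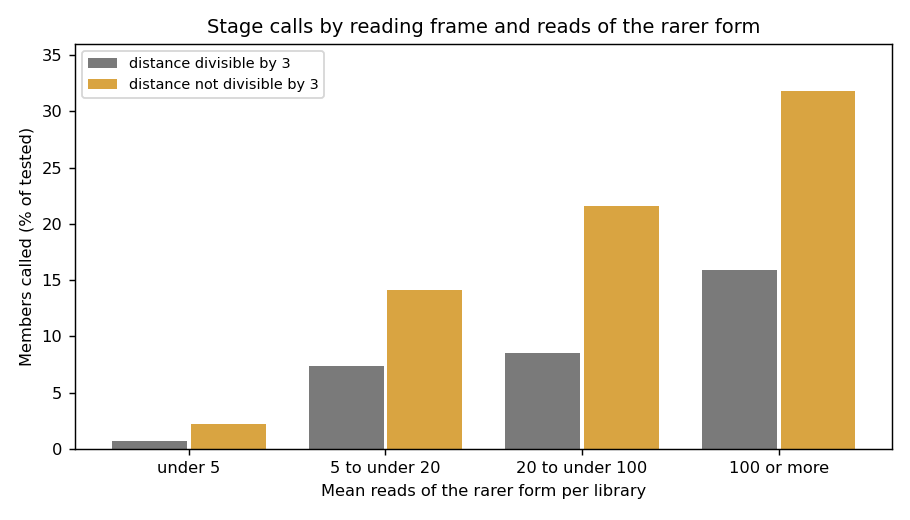
Members called between stages as a percent of those tested (vertical axis), by the mean reads of the rarer form per library (horizontal axis) and by whether the distance is divisible by 3. The share is lower for distances divisible by 3 in all 4 groups of reads, with 15.9% against 31.8% at 100 reads or more.

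Over whole classes the stages differed little. In members tested in both stages, the median level at 10 to 30 nt was 23.4% ± 1.33 (SD, n = 4 libraries) in spermatocytes and 25.3% ± 0.623 in round spermatids. At 4 to 9 nt it was 93.2% ± 0.49 and 94.5% ± 0.727, and for all distances not divisible by 3 it was 77.5% ± 1.32 and 80.6% ± 1.42. In these 3 classes no library of one stage overlapped the other, which gives the smallest p that 4 libraries against 4 allow (two-sided exact permutation test, p = 0.02857), and none passed adjustment over the 7 classes tested (adjusted p = 0.06667, permutation test). With only 3 of the 7 classes at that smallest p, the adjusted value could not fall below 0.05 whatever the size of the differences. The adjusted test therefore cannot decide on these 3 classes. The differences of the other 4 classes were -0.757 points at 31 to 100 nt, -3.54 points from over 100 to 300 nt, -1.08 points over 300 nt and -1.09 points for distances divisible by 3, with exact permutation p-values from 0.2286 to 0.7714.

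The members with the largest excess of the long form in spermatocytes included several with many reads. Fubp1, which codes for a protein that binds single-stranded DNA upstream of Myc, has acceptors 2129 nt apart (chromosome 3, plus strand, 152232395 and 152234524). Its long form took 75.1%, 73.3%, 65.2% and 74.4% in spermatocytes and 30.1%, 23.7%, 24.9% and 35.6% in round spermatids. The difference was 2.70 ± 0.37 (SE) in log2 odds (adjusted p = 1.376e-06, limma). Pcnp, a nuclear protein gene with a PEST motif (52 nt, chromosome 16, minus strand, 56024438 and 56024386), had the long form as the major one in spermatocytes and the minor one in round spermatids: 64.5%, 62.6%, 70.2% and 65.2% in spermatocytes against 35.1%, 31.4%, 33.8% and 33.2% in round spermatids, a difference of 1.94 ± 0.21 (adjusted p = 1.511e-08, limma). Fam63a, a deubiquitinase gene whose upstream acceptor is printed above (311 nt, chromosome 3, plus strand, 95282920 and 95283231), had 63.5%, 58.0%, 57.2% and 59.1% against 36.5%, 28.5%, 23.5% and 21.9%, or 1.92 ± 0.33 (adjusted p = 5.414e-05, limma). Separate stages in these genes follow from the way they were picked.

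Rnf212b, a relative of the meiotic crossover gene Rnf212 (370 nt), had 59.6%, 100%, 94.3% and 87.8% in spermatocytes and 38.1% to 48.2% in round spermatids. Dmrtc1a, a gene of the DMRT family on the X chromosome (83 nt), had 83.7% to 87.6% against 42.8% to 55.5%, with 26.2 reads per library in spermatocytes. Ankzf1, which acts in quality control of stalled ribosomes (31 nt), had 73.2% to 92.3% against 30.6% to 71.3%, so its stages nearly touched. It had 18.0 reads per library in round spermatids. The other 4 of the 10 also rested on few reads or on 1 library. Gpr153 (69 nt) had 6.75 reads per library in spermatocytes, Sned1 (44 nt) had 4.75 in round spermatids, and Trmt1, a tRNA methyltransferase gene (17 nt), had 23.5 and 17.2. Slc44a5, a gene of the choline transporter-like family (2306 nt), had 19.5%, 18.2%, 100% and 28.8% against 6.28% to 12.1%, so 1 library supplied most of its difference.

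Among members with the long form higher in round spermatids, 2810403A07Rik (28 nt, chromosome 3, plus strand, 88709830 and 88709858) stood out for its narrow spread. It had 50.2%, 47.6%, 60.0% and 53.7% in spermatocytes and 95.3%, 91.9%, 95.6% and 92.4% in round spermatids, a log2 odds difference of -3.71 ± 0.30 (adjusted p = 3.384e-11, limma). Clk2, a kinase that phosphorylates SR splicing factors (434 nt, chromosome 3, plus strand, 89169615 and 89170049), had 45.1%, 62.3%, 67.4% and 64.7% against 88.6%, 95.8%, 90.2% and 93.9%, or -3.04 ± 0.30 (adjusted p = 2.246e-09, limma), and a listed intron lies inside its stretch. Tgfbr1, the type I receptor for TGF-beta (12 nt, chromosome 4, plus strand, 47393247 and 47393259), had 51.1%, 53.2%, 53.9% and 51.6% against 96.8%, 86.6%, 92.5% and 75.9%, or -3.03 ± 0.50 (adjusted p = 3.026e-05, limma). In Tgfbr1 both forms were used alike in spermatocytes and the frame is kept in either.

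Kif15, a mitotic spindle kinesin gene (84 nt), had 6.11% to 10.6% in spermatocytes and 33.8% to 50.0% in round spermatids. Gm36445 (199 nt) had 29.2% to 59.8% against 83.8% to 90.7%, and Jmjd4, a lysyl hydroxylase gene (86 nt), had 14.8% to 26.4% against 35.2% to 65.5%. Flcn, the folliculin gene (311 nt), had 3.89% to 10.4% against 22.4% to 52.7%. The members named here as higher in round spermatids were also picked among those whose stages did not overlap, so their separate stages follow from the choice. Zfp426, a zinc finger gene (25 nt), and Rap1gap, a GTPase-activating protein gene (31 nt), differed by -36.2 and -35.2 points on fewer than 20 reads per library in round spermatids. Tmtc4 (112 nt) had the largest difference, -83.8 points, on 5.75 reads per library in spermatocytes.

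**Figure D5:**
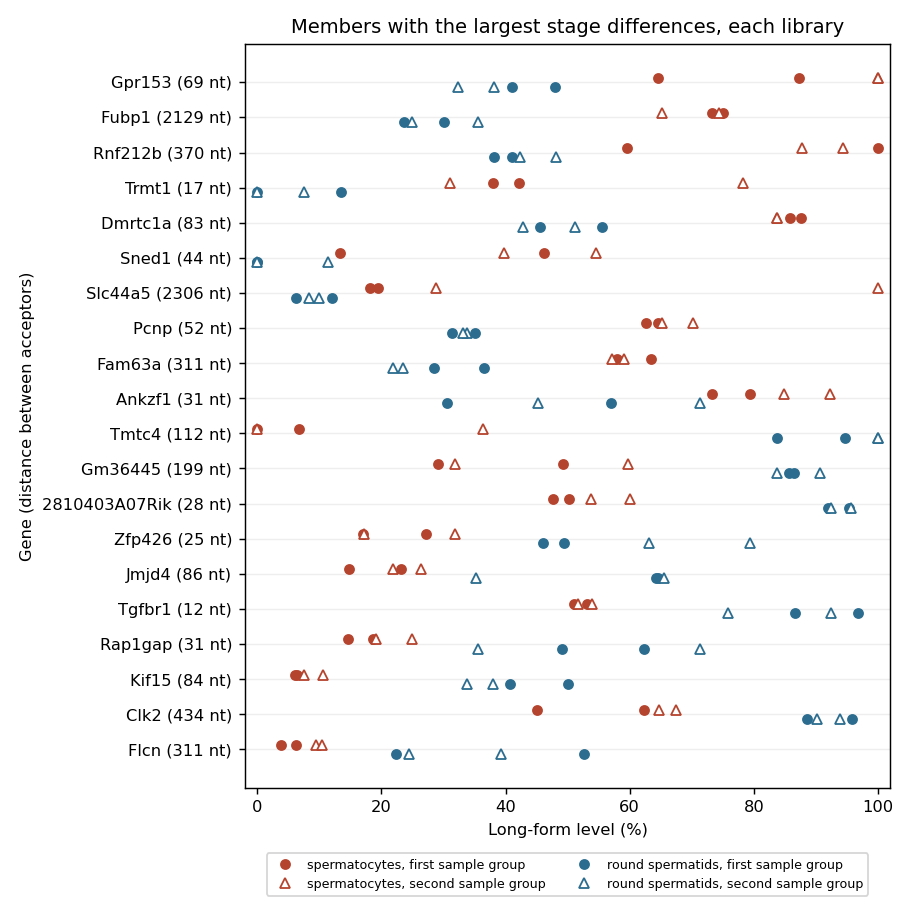
Long-form level in percent (horizontal axis) in every library for the 10 members with the largest difference in each direction among called members whose stages do not overlap, 1 line per gene, with circles for group 1 and triangles for group 2. Fubp1, Pcnp and Fam63a lie to the right in spermatocytes, and 2810403A07Rik, Tgfbr1 and Kif15 to the right in round spermatids.

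Of the 28 named members called between stages, 15 were called in each alternative and each fit with 1 library left out that gave them a value, among them Fubp1, Pcnp, Fam63a, 2810403A07Rik, Tgfbr1, Kif15 and Clk2. Tmtc4, also among the 15, had no value with a minimum of 20 reads or without library 2 of round spermatid group 1. Weights from the counts of each library, among other alternatives, ended the calls of Gpr153 (adjusted p = 0.5759, limma), Sned1 (0.2442), Slc44a5 (0.1494) and Rsrc2 (0.06424). Of the alternatives with all libraries that gave a value, Gpr153 was called in 7 of 9 and Sned1 in 5 of 8. Slc44a5 and Rsrc2 were called in 4 of 9 each, Ankzf1 in 8 of 9 and Rap1gap in 7 of 8. Rnf212b lost its call when the variance trend followed total reads (adjusted p = 0.1189 and 0.1527, limma). Rnf212b, Gpr153, Sned1, Slc44a5 and Rsrc2 also lost their calls in some fits without a single library. With single libraries left out, the largest adjusted p in limma was 0.304 for Ankzf1, 0.34 for Zfp426, 0.235 for Rap1gap, 0.17 for Tial1, 0.106 for Son, 0.104 for Flcn, 0.0727 for Trmt1 and 0.0514 for Dmrtc1a.

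Some deeply covered members over 100 nt changed as well, while Dyrk1b (120 nt), picked by the same rule and given above, was not called. Supt20, a subunit gene of the SAGA coactivator complex (938 nt, chromosome 3, plus strand, 54716638 and 54717576), had 28.1%, 25.5%, 27.8% and 28.8% in spermatocytes and 13.2%, 14.1%, 15.4% and 18.0% in round spermatids, 1.08 ± 0.12 in log2 odds (adjusted p = 5.099e-08, limma). Snrnp70, which codes for the U1-70K protein of the U1 particle (2366 nt, chromosome 7, minus strand, 45383184 and 45380818), had 37.3%, 27.8%, 24.7% and 25.1% against 14.2%, 8.32%, 12.5% and 12.1%, or 1.62 ± 0.17 (adjusted p = 1.134e-08, limma), with a listed intron inside. BC051142 (237 nt) went the other way, at 63.2% to 67.8% against 74.5% to 79.0%, or -0.74 ± 0.11 (adjusted p = 8.088e-06, limma). The stages were separate in all 3 genes.

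Genes that act on splicing themselves had called members in both lists examined. Of 10 tested members in genes of 3′ splice site recognition, 1 was called between stages, beside 11.5% of all events. It was Sf1, the branch point protein gene (chromosome 19, plus strand, 6374719 and 6374820), whose long form took 99.7%, 99.6%, 99.9% and 99.9% in spermatocytes and 98.0%, 98.0%, 99.1% and 98.4% in round spermatids, a difference of 1.42 points. Of 33 members in splicing regulator genes 5 were called (15.2%, again beside 11.5% of all events), 3 higher in spermatocytes. Besides Clk2, these were Son, which codes for a nuclear speckle protein (53 nt, 50.7% to 55.9% against 42.0% to 44.2%), Tial1, an RNA-binding protein gene (309 nt, with a listed intron inside, 45.2% to 65.0% against 8.95% to 35.2%), Rsrc2 (22 nt, 71.9% to 81.5% against 77.7% to 95.0%) and Rsrp1. In Rsrc2 the stages overlapped. The Rsrp1 member that follows the exon at 134925293 to 134925432 of chromosome 4 had 70.2%, 69.9%, 57.3% and 55.6% in spermatocytes and 35.5%, 38.5%, 42.8% and 36.6% in round spermatids, or 1.47 in log2 odds (adjusted p = 0.0004104, limma).

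In genes of the 7SK and U6 machinery 1 of 10 members was called, in Cdk9, the kinase of P-TEFb (224 nt). Its long form took 28.4%, 29.3%, 42.0% and 44.1% in spermatocytes and 43.8%, 55.4%, 48.5% and 61.8% in round spermatids, so the stages overlapped slightly (-1.03 ± 0.28 in log2 odds, adjusted p = 0.009875, limma). Of 18 members in meiotic genes 3 were called (16.7%, beside 11.5% of all events). Spo11, which makes the meiotic double-strand breaks (39 nt), had 17.1% to 21.5% in spermatocytes and 8.3% to 15.3% in round spermatids. Hfm1, a crossover helicase gene (75 nt), had 74.0% to 83.7% against 92.3% to 97.8%, and Msh5, which stabilises crossover intermediates (79 nt), had 5.51% to 26.00% against 0% to 7.55%. Spo11 and Hfm1 did not overlap between stages, and Msh5 did.

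Acrosome and spermatid genes had 2 called of 14 members (14.3%, beside 11.5% of all events). Crem, a transcription factor gene of round spermatids (397 nt), had 6.07%, 5.84%, 3.14% and 3.52% in spermatocytes and 1.61%, 1.13%, 1.23% and 0.80% in round spermatids, and Adam32 (40 nt) had 95.7% to 97.7% against 97.5% to 98.4%. Of 23 members in flagellum and cilium genes 4 were called (17.4%, beside 11.5% of all events). Cfap74 (13 nt) had 78.2% to 79.8% against 86.1% to 92.4%, Ift88, an intraflagellar transport gene (50 nt), 4.62% to 5.07% against 7.44% to 9.28%, Ccdc114 (4 nt) 89.6% to 94.4% against 97.1% to 99.6%, and Odf2, an outer dense fibre gene (37 nt), 84.7% to 93.8% against 75.1% to 82.6%. These 4 were separate between stages. None of 5 members in piRNA genes was called, beside 11.5% of all events. The counts are small, and none of these lists is set apart from all events by them.

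Between the sample groups of a stage almost no member was called, which does not show that the groups were alike. Under 1 of 2 forms of simulated spread, described below, the same fit found none of the changes put into spermatocytes. In spermatocytes limma called 4 of 2461 tested members (all events, 0.288%), 2 higher in each group (all events, 0.0556% higher in group 1 and 0.232% in group 2), with 202 at an unadjusted p below 0.05. In round spermatids it called 2 of 2148 (all events, 0.131%), 1 higher in each group (all events, 0.0416% and 0.0895%), with 90 at an unadjusted p below 0.05. All 6 were over 100 nt, and none of them overlapped between groups, as was so for all called events. With weights from the counts of each library the calls were 11 and 1, of which 2 and 1 were shared with those above, and without any weights 0 and 2. Leaving out 1 library gave 0 to 273 calls (spermatocytes) and 0 to 181 (round spermatids). None of the 6 was called under all alternatives. In spermatocytes, the Sertoli markers and the spermatogonial markers other than Tuba3a were higher in group 1. The sum of the spermatocyte markers was too, but its genes were split. Sycp1, Sycp3, Hormad1, Tex101 and Meiob were higher in both libraries of group 1, and Piwil1, Spo11 and Ccna1 in both of group 2. The summed markers of elongating spermatids were higher in group 2. The part of these cell types in the calls was not tested.

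Srek1, a regulator of splicing of the SR-related family (188 nt, chromosome 13, minus strand, 103758488 and 103758300), had 21.9% and 16.2% in spermatocyte group 1 and 9.13% and 7.14% in group 2, 1.29 ± 0.23 in log2 odds (adjusted p = 0.04954, limma). Rsrp1, an arginine and serine rich protein gene (709 nt, chromosome 4, plus strand, 134926026 and 134926735), after the exon at 134925777 to 134925821, had 81.0% and 79.4% against 92.5% and 89.5%, or -1.41 ± 0.24 (adjusted p = 0.04004, limma). The member with the same acceptors after the exon at 134925293 to 134925432 differed the other way, by 0.84 ± 0.16, and missed the threshold (adjusted p = 0.06772, limma). Srek1 and the called Rsrp1 member lost the call whichever library was left out, with adjusted p-values in limma up to 0.609 and 0.599.

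The other 2 calls in spermatocytes and 1 in round spermatids set a form against none of its reads in group 2, so their fitted differences depend on the reads added. Casc1 (2176 nt, with a listed intron inside) had 94.2% and 58.3% against 100% and 100% in spermatocytes. Tpm1, a tropomyosin gene (1124 nt), had 1.55% and 5.15% against 0% and 0%, on 54.2 reads per library. Rras2, a Ras family gene (1279 nt), had 3.66% and 7.41% against 0% and 0% in round spermatids, on 23.2 reads per library. The remaining call in round spermatids was Gm5458 (819 nt), with 35.6% and 11.3% against 86.7% and 85.3% (adjusted p = 0.0001869, limma). It was called under 6 of 9 alternative fits and with 1 of the 4 libraries left out. Near-identical copies of this gene exist, and the counting could have split reads between them.

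In members over 300 nt the short form was seen in more members in group 1. Among the 354 tested in spermatocytes, 145 had no short-form read in either library of group 2 (41.0%) and 28 had none in group 1 (7.91%). In round spermatids the counts were 67 (24.5%) and 42 (15.3%) of 274. At 31 to 100 nt in spermatocytes they were 81 (9.52%) and 32 (3.76%) of 851. Summed over members over 300 nt, short-form reads in spermatocytes were 12470 and 22823 (group 1) and 13450 and 12339 (group 2). Over all events, group 1 held 51786242 and 102000320 reads and group 2 held 64657689 and 64421409, and the part of depth in these counts was not tested.

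The authors' deposited table of spermatocytes gave 92 of 2749 members an FDR below 0.05 with a level difference of at least 10 points (all events, 2.5%), 31 higher in group 1 and 61 higher in group 2. The authors' deposited table of round spermatids gave 50 of 2475 (all events, 1.47%), 18 and 32. Of these, limma also called 3 and 1.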

How the data were processed

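Polyadenylated RNA of 8 libraries was sequenced. Reads were aligned with STAR to mm10, per the submitters' processing notes. No source used here gives the event caller's version. The authors deposited 10 tables (5 event types, 2 stages) of whole-number read counts of each form, form lengths and p-values with FDR, per the file headers. The headers name junction counts, yet reads of cassette exons grew with exon length (slope 1.12 and 1.16 on log2 scales), so reads inside the alternative stretch appear to be included. Depth sets the precision, and p-values measure only the spread between these libraries. No 2 libraries of a group agreed within counting noise (chi-square per degree of freedom 17.4 to 53.7).

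A limma model (limma 3.58.1, R 4.3.3) was fitted to log2 odds of the long form over all events of a stage, or of both stages, with at least 10 reads per library on average and 1 read of each form. An average of 0.5 reads was added per form, scaled to the library's event reads. The variance trend followed the reads of the rarer form, and the Benjamini-Hochberg adjustment covered all events of a fit (called below 0.05). Class medians used exact permutation tests (scipy 1.17.1).

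The weights were inverse counting variances, and their exact form was settled late. First, 8 versions of the fit (2 forms of weights, 2 of added reads, 2 of trend) were run on the real tables of each stage, and weights from the counts of each library were kept because their numbers of calls lay near those of an earlier analysis. Simulated data with 2 forms of spread between libraries were then used as a check. A first simulation gave those weights about as many false as true calls within stages and was at first replaced by a milder one, after which both were kept. Weights from the proportion pooled over libraries gave far fewer false calls under both and were made the main choice, at a cost in power within stages: under one form of spread, none of the changes put in was found in spermatocytes. Under the other, false calls still exceeded the nominal rate, more so within stages than between them. The first weights are reported as an alternative chosen after seeing the data.

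Named members were: all members called between sample groups (at most 12 per stage), the 10 largest non-overlapping stage differences in each direction, the 2 with most reads per distance class at levels of 10% to 90%, and called members in the lists of 3′ splice site recognition and splicing regulators. Called members of the other lists are named with their values as well and were chosen after those were seen. Members and lists were chosen with earlier results of these data known. Gene names matched 1934 of 2195 IDs.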

Additional observations from a re-analysis of the deposited data

How the results depend on the processing

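The count of 213 members called between stages was within 1.5 times of the main value under every alternative fit (156 to 265) and ranged from 106 to 159 with 1 library left out. The counts within stages moved with nearly every choice. In spermatocytes (main value 4) they were 0 with a trend on total reads, with or without scaling, 0 without weights, 0 without a read minimum, 10 with 1 read added per form, 11 with weights from the counts of each library, 92 by the authors' rule, and 0 to 273 with 1 library left out. In round spermatids (2) they were 0 with either trend on total reads, 0 without a read minimum, 1 with weights from the counts of each library, 1 with 1 member per pair of acceptors, 5 with 1 read added per form, 50 by the authors' rule, and 0 to 181 with 1 library left out. Where a library was left out, its group had 1 sample, assumed to vary like the others. The table columns carry no replicate numbers, so the replicate block used the position in the table cell, which need not pair libraries: it gave 45 and 11 calls within stages and 265 between them. No class median passed the threshold under an alternative with all 8 libraries. Under none of these did enough classes reach the smallest p for the adjustment to allow a pass. With 1 left out 0.05714 is the smallest exact permutation p possible, so neither kind of alternative decides on it. The sign turned for distances divisible by 3 without length normalisation (1.02 points) and over 300 nt with the mean (0.799). It also turned with 1 library left out, over 300 nt (range -2.64 to 1.14), at 31 to 100 nt (range -1.58 to 0.157, with 0.0153 also positive) and for distances divisible by 3 (range -2.26 to 0.271). The cause of these changes was not tested. The share of called members over 100 nt higher in spermatocytes ran from 46.6% to 66.7%, and up to 100 nt from 29.9% to 41.9%. Calls were 2.93% to 9.14% of members divisible by 3 and 6.80% to 15.7% of the others.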
